A study of Mus musculus with 6 samples.

Results

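The 10 genes described here encode proteins that neutrophils store in their granules or cytosol. They were listed by symbol, 10 out of the 24063 gene symbols counted in every library. The list was chosen with earlier results of these data known. Mpo, Elane, Prtn3 and Ctsg encode the primary (azurophil) granule proteins. Ngp, Camp, Ltf and Lcn2 encode secondary (specific) granule proteins, and S100a8 and S100a9 encode the subunits of calprotectin, which is held mainly in the cytosol. All 10 were counted in every library and all 10 passed the filter on low counts. RNA sequencing was carried out on LSK cells, the lineage-negative Sca-1+ c-Kit+ fraction of bone marrow that holds blood stem and early progenitor cells, from C57BL/6 mice. The groups were 3 Asxl2-/- libraries and 3 control libraries labelled wild type, and the sample titles give Mx1-cre for both groups. In the methods of the study the knockout animals carried floxed Asxl2 alleles and the controls carried Mx1-cre. Mx1 is an interferon-inducible promoter, pIpC is a double-stranded RNA that induces it, and every animal of both groups had received pIpC, so that agent and the Cre recombinase were shared by the groups. Whether a library came from 1 animal or several, and the age of these animals, is not given in the sources used here.

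Neutrophil granules are filled in the order in which their proteins are made. Primary granule proteases and myeloperoxidase are transcribed from the granulocyte-monocyte progenitor to the promyelocyte. Secondary granule proteins follow in myelocytes and metamyelocytes, when transcription of the primary set has been shut down, and this later step depends on the factor C/EBP-epsilon. Calprotectin is made from the myelocyte onwards and becomes one of the most abundant proteins of the mature neutrophil. The LSK fraction lies before all of these steps, and its multipotent progenitors are known to carry early myeloid transcripts such as Mpo.

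The genes lie in a few small neighbourhoods of the mm10 build. Prtn3 (chr10:79879667-79883172) and Elane (chr10:79886312-79888216) lie 3139 bases apart. Camp, Ngp and Ltf lie on chromosome 9 (chr9:109847377-109849456, chr9:110419808-110423012 and chr9:111019292-111042766) within 1170 kb between Camp and Ltf. S100a8 (chr3:90669071-90670034) and S100a9 (chr3:90692630-90695721) lie 22.6 kb apart. Mpo (chr11:87793784-87804412), Ctsg (chr14:56099881-56102574) and Lcn2 (chr2:32384637-32387739) lie alone. The exons of these genes shared no bases with exons of another gene, so that no reads of the 10 were split by an overlapping gene.

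The stretches just upstream of a pair of primary granule genes and a pair of secondary granule genes are printed here as examples from the 2 sets whose values are compared throughout. The secondary pair are the 2 genes that passed the test, and the pairs do not stand for the motif matches of their whole set. Each runs from 110 bases before to 20 bases after the RefSeq start on build GRCm38.p6 and is read 5' to 3' on the gene's strand. Capitals mark matches to any of 5 short motifs, which were searched on both strands and chosen after the values were seen. The C/EBP family was searched as TTNNGNAA, and the ETS family with the flank that PU.1 favours as GAGGAAG. RUNX factors were searched as TGTGGT. The MYB family was searched as CNGTTA. The TATA box was searched as TATAAA.
Elane, chr10:79886202-79886331, plus strand: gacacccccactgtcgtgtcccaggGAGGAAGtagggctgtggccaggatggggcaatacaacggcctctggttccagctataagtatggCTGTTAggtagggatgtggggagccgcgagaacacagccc
Prtn3, chr10:79879557-79879686, plus strand: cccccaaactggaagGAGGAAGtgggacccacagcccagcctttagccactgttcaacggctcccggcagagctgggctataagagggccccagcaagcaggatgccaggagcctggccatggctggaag
Ngp, chr9:110419698-110419827, plus strand: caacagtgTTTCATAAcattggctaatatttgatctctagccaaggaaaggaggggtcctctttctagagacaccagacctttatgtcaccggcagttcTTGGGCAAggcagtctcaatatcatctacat
Ltf, chr9:111019182-111019311, plus strand: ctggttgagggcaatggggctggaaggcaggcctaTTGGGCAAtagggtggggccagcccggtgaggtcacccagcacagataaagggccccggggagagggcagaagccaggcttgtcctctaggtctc
The full promoter windows of 300 bases were found for all 10 genes. GAGGAAG occurred in 6 of the 10 and in 13.6% of all 32851 promoters. Those 6 were Mpo, Elane, Prtn3, Ctsg, Lcn2 and S100a8. The C/EBP letters occurred in 5 of the 10, namely Ngp, Ltf, Lcn2, S100a8 and S100a9, against 40.7% of all promoters, so that this share was near the background. The RUNX letters were found in 3 of the 10 (16.8% of all promoters), the MYB letters in 2 (23.3%) and the TATA box letters in 3 (13.6%). With the start base as 0, the last lay from -30 to -25 in S100a8 and from 0 to 5 in S100a9. In Ctsg they lay from -237 to -232 on the opposite strand. Camp held no match to any of the 5 motifs. The 8 bases TTGGGCAA, a match to the C/EBP letters, began at position -11 in Ngp and at position -75 in Ltf, counted from the start base as 0. These matches describe the letters in the windows and were not tested as binding sites.

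The libraries held between 25528540 and 55032075 assigned counts, and the totals depend on the kind of file. Of the 6 libraries, 3 were deposited as counts per transcript (Asxl2-/- replicates 1 and 3 and control replicate 2), and 3 as counts per exon, where 1 read over a splice junction may add to several exons (Asxl2-/- replicate 2 and control replicates 1 and 3). File kind was therefore a covariate in the tests given here, and 2 of the alternatives left it out. Control replicate 2 was the only control gene-count file, and Asxl2-/- replicate 2 the only Asxl2-/- exon-count file. With the covariate, the group difference without control replicate 2 therefore rests on the exon-count files. Without Asxl2-/- replicate 2 it rests on the gene-count files. These fits are not checks separate from the comparisons within 1 file kind. Levels are given as CPM, which are counts divided by the normalised library size, and 3 counts corresponded to between 0.0545 and 0.118 CPM per library before scaling. The targeted gene checked the labels where the files allow it. Asxl2 itself had a log2 fold change of 0.11 (SE 0.095, adjusted p = 0.469 in edgeR), and exon 11 (chr12:3496225-3496936), the floxed exon, took 0.583% of Asxl2 counts in Asxl2-/- replicate 2 (28 of 4804, Wilson 95% interval 0.404 to 0.841%) against 10.3% and 11.99% in control replicates 1 and 3. The gene-count files do not separate that exon. Xist stood at 1071 to 2351 CPM in the Asxl2-/- libraries and at 12.97 to 61.3 CPM in the controls, while the Y-linked Uty, Kdm5d, Ddx3y and Eif2s3y reached no more than 2 counts per Asxl2-/- library, so that genotype and sex cannot be told apart for any gene here. Asxl2-/- replicates 1 and 3, both gene-count files, differed by more than sampling noise, with a chi-square of 25.7 per degree of freedom. Control replicates 1 and 3 gave 42.9, in exon-count files where 1 read may be counted several times. Pairs of 1 group that cross the file kinds gave 103 to 143, and these values also carry the file kind.

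Counted over the 10 genes, 2 passed the threshold of adjusted p under 0.05 in edgeR, Ngp and Ltf, both higher in Asxl2-/- and none lower, against 2.34% of the 14145 genes tested (2.04% higher). At unadjusted p under 0.05, 5 of the 10 passed, all higher, against 27.7% of all genes (15.0% higher). The groups did not overlap for 4 of the 10, all higher in Asxl2-/-, against 24.8% of all genes (15.4% higher). Those 4, Ngp, Camp, Ltf and S100a9, had a log2 fold change of at least 2, as had 1.77% of all genes. Both kinds of file gave a positive difference for 6 of the 10, against 33.7% of all genes, and the other 4 were the primary granule genes. Each of these differences within a file kind rests on 1 library in 1 of the groups. The median log2 fold change was 3.28 for the 4 secondary granule genes, 1.92 for the calprotectin subunits and 1.47 over all 10, beside 0.00052 over all genes tested. Because the 10 genes were chosen with earlier results of these data known, these counts and medians are descriptions.

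The primary granule genes were the most abundant of the 10 in every library, and their levels did not separate the groups. Mpo, the peroxidase that makes hypochlorous acid, stood at 3031, 4732 and 1749 CPM in the Asxl2-/- libraries, in the order of their replicate numbers, and at 1850, 5506 and 3628 CPM in the controls. The highest library was control replicate 2 and the lowest Asxl2-/- replicate 3, and the groups overlapped. Its log2 fold change was -0.21 (SE 0.492), with 11.51 ± 0.73 against 11.71 ± 0.78 log2 CPM (SD, n = 3 each, file kind removed) and adjusted p = 0.817 (edgeR). It was -1.26 between gene-count files and 0.87 between exon-count files. The fit without control replicate 2, which rests on the exon-count files, gave 0.80. Without Asxl2-/- replicate 3 it was 0.0995.

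Elane, neutrophil elastase, followed the same pattern over the libraries. Its levels were 353, 502 and 155 CPM in the Asxl2-/- libraries and 167, 697 and 383 CPM in the controls. Control replicate 2 was highest and Asxl2-/- replicate 3 lowest, with overlapping groups. The log2 fold change was -0.29 (SE 0.604, adjusted p = 0.787 in edgeR), and it was 0.88 without control replicate 2, a fit that rests on the exon-count files. Prtn3, the protease next to Elane on chromosome 10, stood at 440, 587 and 238 CPM in the Asxl2-/- libraries and at 239, 830 and 441 CPM in the controls. The order of the libraries was the one seen for Elane at its ends, and the groups overlapped. Its log2 fold change was -0.25 (SE 0.505, adjusted p = 0.780 in edgeR) and 0.80 without control replicate 2, again from the exon-count files.

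Ctsg, cathepsin G, a chymotrypsin-like protease of the same granule, stood at 463, 685 and 270 CPM in the Asxl2-/- libraries and at 255, 724 and 442 CPM in the controls. Control replicate 2 was again highest and control replicate 1 lowest, and the groups overlapped. Its log2 fold change was -0.0036 (SE 0.462, adjusted p = 0.998 in edgeR). The 4 genes showed the opposite sign between the file kinds, from -1.57 to -1.03 between gene-count files and from 0.85 to 1.03 between exon-count files. The only control gene-count file, replicate 2, and the only Asxl2-/- exon-count file, replicate 2, were the 2 highest libraries for all 4 genes. None of the 4 passed in edgeR at adjusted or unadjusted p under 0.05, nor in DESeq2 or limma-voom, and their median log2 fold change was -0.23.

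**Figure D1:**
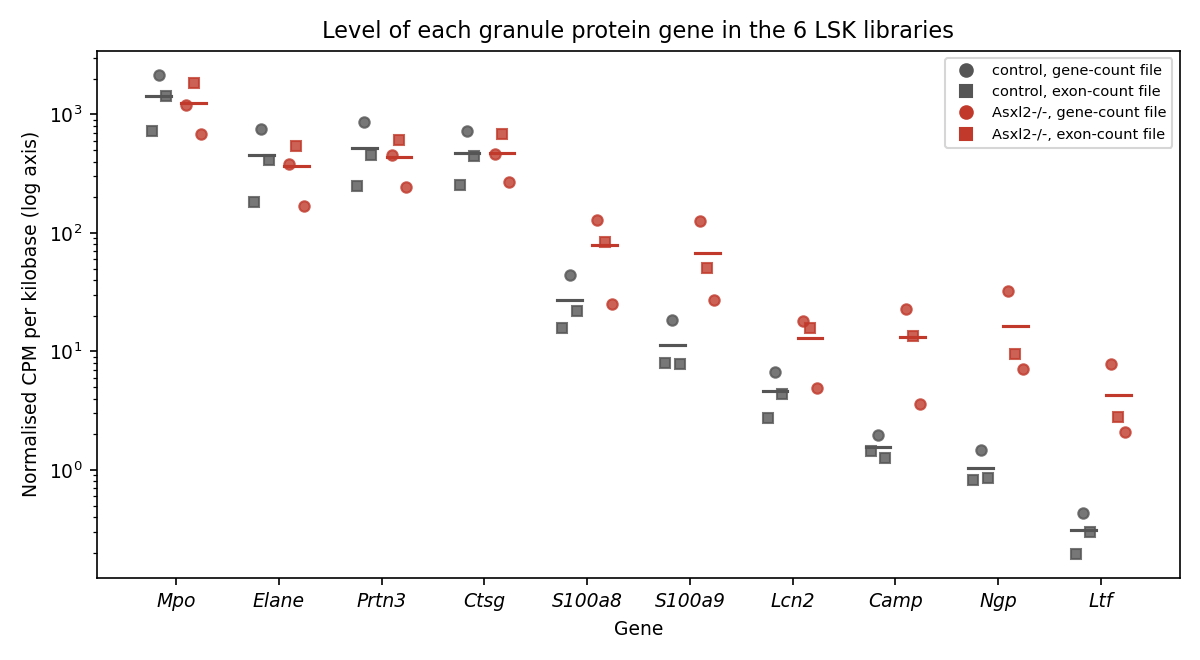
Normalised CPM per kilobase of transcript, on a log axis, of the 10 genes in each of the 6 libraries, with 1 point per library, controls in grey, Asxl2-/- in red, circles for gene-count files, squares for exon-count files and a line at each group's mean. Mpo, Elane, Prtn3 and Ctsg overlap between the groups, and the 3 Asxl2-/- libraries lie above all controls for Ngp, Camp, Ltf and S100a9.

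The secondary granule genes were higher in the Asxl2-/- libraries, and 2 of the 4 passed the test. Ngp, a cystatin-like neutrophilic granule protein, stood at 37.6, 11.1 and 8.25 CPM in the Asxl2-/- libraries, from 1060, 593 and 234 counts. The controls held 0.959, 1.70 and 0.991 CPM, from 50, 49 and 47 counts. Every Asxl2-/- library lay above every control library, and Asxl2-/- replicate 1 stood apart at the top. Ngp rose with a log2 fold change of 3.62 (SE 0.604, 12.3-fold), with 3.80 ± 1.09 against 0.41 ± 0.040 log2 CPM and adjusted p = 0.0444 (edgeR). Gene-count files alone gave 3.33 and exon-count files alone 3.45.

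Ltf, lactoferrin, which binds iron, behaved likewise. It stood at 21.7, 7.72 and 5.71 CPM in the Asxl2-/- libraries, from 611, 411 and 162 counts. The controls held 0.537, 1.18 and 0.823 CPM, from 28, 34 and 39 counts, and the groups did not overlap. Ltf rose with a log2 fold change of 3.52 (SE 0.560, 11.4-fold), with 3.20 ± 0.96 against -0.11 ± 0.29 log2 CPM and adjusted p = 0.0405 (edgeR). Gene-count files alone gave 3.18 and exon-count files alone 3.44. These adjusted p-values lie close to the threshold. Without 1 library at a time, the Ngp call was lost for Asxl2-/- replicate 1 (adjusted p = 0.0686 in edgeR), Asxl2-/- replicate 2 (0.0692), control replicate 1 (0.0563), control replicate 2 (0.117) and control replicate 3 (0.183), and was kept without Asxl2-/- replicate 3 (0.0213). The Ltf call was lost without the same 5 libraries (0.0837, 0.0673, 0.0525, 0.103 and 0.163 in that order) and kept without Asxl2-/- replicate 3 (0.0344). Both were also lost with limma-voom (0.0903 for Ngp, 0.0741 for Ltf), with library size alone as scaling (0.0613 and 0.0559) and when the longest exon stood for the gene in the exon-count files (0.0507 and 0.0935), whereas both remained higher in Asxl2-/- in each of the 17 alternatives run, by 3.004 to 3.98 for Ngp and 3.002 to 3.81 for Ltf.

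Camp, the cathelicidin precursor, stood at 13.6, 8.08 and 2.15 CPM in the Asxl2-/- libraries and at 0.863, 1.18 and 0.759 CPM in the controls. All 3 Asxl2-/- libraries lay above the controls, and Asxl2-/- replicate 3 came closest to them. The log2 fold change was 3.04 (SE 0.691), and the test was missed with adjusted p = 0.0740 (edgeR). Without Asxl2-/- replicate 3 it was 3.37 and passed, with adjusted p = 0.0207 (edgeR), and without any other library it was 2.39 to 3.31 and did not pass (0.0944 to 0.238). Lcn2, lipocalin-2, which binds bacterial siderophores, stood at 15.3, 13.5 and 4.20 CPM in the Asxl2-/- libraries and at 2.36, 5.77 and 3.75 CPM in the controls. Control replicate 2 lay above Asxl2-/- replicate 3, so that the groups overlapped, and the log2 fold change of 1.46 (SE 0.552) did not pass (adjusted p = 0.158 in edgeR). For Lcn2, gene-count files alone gave 0.47, and the fit without Asxl2-/- replicate 2, which rests on them, gave 0.76. Exon-count files alone gave 2.16, and the fit without control replicate 2, which rests on those, gave 2.15. Lcn2 did not pass without any 1 library (adjusted p from 0.0771 to 0.504 in edgeR).

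Calprotectin lay between the sets. S100a8, the smaller subunit, stood at 50.5, 33.1 and 9.77 CPM in the Asxl2-/- libraries and at 6.22, 17.3 and 8.56 CPM in the controls. Asxl2-/- replicate 3 lay below control replicate 2, and the log2 fold change of 1.49 (SE 0.619) did not pass (adjusted p = 0.185 in edgeR). For S100a8, gene-count files alone gave 0.36, and the fit without Asxl2-/- replicate 2, which rests on them, gave 0.80. Exon-count files alone gave 2.18, and the fit without control replicate 2, which rests on those, gave 2.17. S100a9, its partner, stood at 65.5, 26.5 and 14.1 CPM against 4.16, 9.69 and 4.11 CPM. The groups did not overlap, and the log2 fold change of 2.36 (SE 0.561) had adjusted p = 0.0772 in edgeR. S100a9 passed with DESeq2 (0.0179) and, in edgeR, without Asxl2-/- replicate 3 (0.00668), and S100a8 passed without that replicate (0.0495). Without any other library neither passed, with adjusted p from 0.103 to 0.243 for S100a9 and from 0.252 to 0.541 for S100a8 (edgeR). Neither passed with limma-voom.

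**Figure D2:**
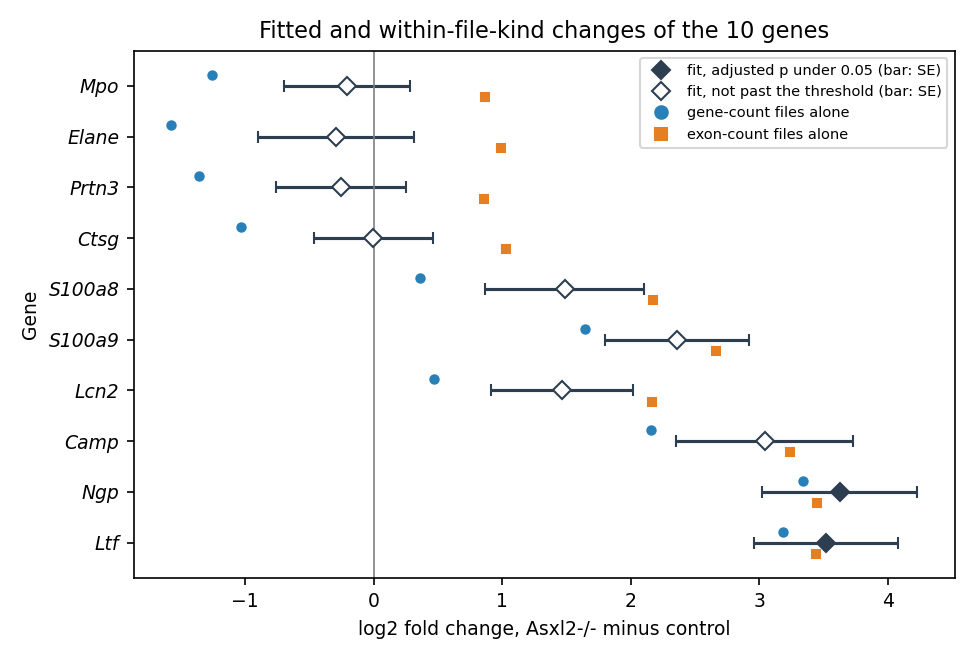
Log2 fold change of Asxl2-/- over control on the horizontal axis for each of the 10 genes, with diamonds for the fit, filled where adjusted p was under 0.05, bars for its standard error, blue circles for gene-count files alone and orange squares for exon-count files alone. The fitted values of the secondary granule genes and calprotectin lie at 1.46 or above, and those of the primary granule genes lie between -0.29 and -0.0036 with their file-kind values on opposite sides of 0.

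In each library the level of the primary set was set against that of the secondary set, as the mean log2 of CPM per kilobase of transcript plus 0.1. The difference was 4.94, 6.51 and 6.16 in the Asxl2-/- libraries and 8.17, 9.08 and 8.89 in the controls. As folds these were 30.8, 90.9 and 71.6 against 288, 541 and 475, and no Asxl2-/- library reached a control library. The means were 5.87 ± 0.82 and 8.71 ± 0.48 (SD, n = 3 each), with a difference of -2.77 after removal of file kind and a residual SD of 0.77. Gene-count files alone gave -3.53 and exon-count files alone -2.02. The secondary level itself was 2.59 higher and the primary level 0.19 lower on that scale. No p-value is given for this score, which was formed over chosen genes.

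**Figure D3:**
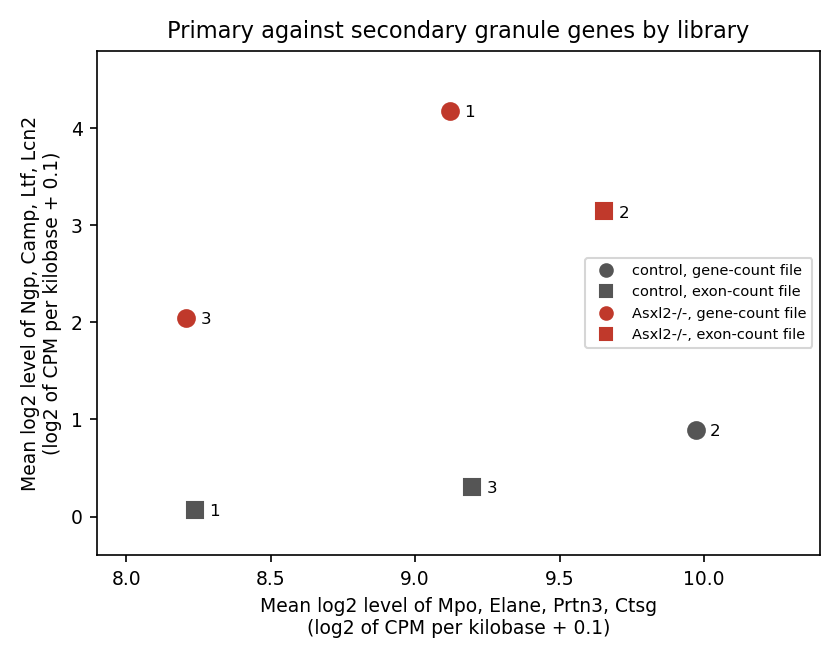
Mean log2 level (log2 of CPM per kilobase plus 0.1) of the 4 primary granule genes on the horizontal axis against that of the 4 secondary granule genes on the vertical axis, with 1 point per library, numbered by replicate, red for Asxl2-/-, grey for control, circles for gene-count and squares for exon-count files. The secondary level is 2.05 to 4.18 in the Asxl2-/- libraries and 0.07 to 0.89 in the controls, and the primary levels overlap.

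The share of all counts taken by the primary genes was 0.473, 0.629 and 0.261% in the Asxl2-/- libraries and 0.246, 0.766 and 0.436% in the controls. The secondary genes took 0.00974, 0.00391 and 0.00220% and 0.000463, 0.000971 and 0.000563%. Both groups therefore held far more primary than secondary granule RNA, and the spread between libraries of a group was wide in both sets. In RNA from bulk cells, a change in the number of cells that make a transcript and a change in the RNA per cell cannot be told apart.

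Compared per length, the levels of the 10 genes in the controls ran in the order Mpo, Prtn3, Ctsg, Elane, S100a8, S100a9, Lcn2, Camp, Ngp and Ltf. Mpo averaged 1438 ± 718 CPM per kilobase, Prtn3 519 ± 309, Ctsg 473 ± 236 and Elane 452 ± 290 (SD, n = 3). S100a8 averaged 27.3 ± 14.9, S100a9 11.4 ± 6.12, Lcn2 4.64 ± 2.01, Camp 1.56 ± 0.367, Ngp 1.05 ± 0.362 and Ltf 0.309 ± 0.118. The means of neighbours in this order differed by more than the larger of their SDs, except for Prtn3 and Ctsg, and Ctsg and Elane. The ranges over the controls still overlapped for Mpo and Prtn3, S100a8 and S100a9, and Camp and Ngp, though the first of each pair was higher in all 3 controls. In the Asxl2-/- libraries Mpo averaged 1245 ± 588 and Ltf, again the lowest, 4.27 ± 3.17 CPM per kilobase. Ngp averaged 16.4 ± 13.9, Camp 13.3 ± 9.58 and Lcn2 12.9 ± 6.99, so that Ngp moved above Camp and Lcn2, though these 3 did not differ beyond their SDs. Unlike the fold changes, these levels were not adjusted for file kind, which was split unequally between the groups. The order of the genes and its shift between the groups carry that limit.

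The 4 primary granule genes had profiles close to one another, and the other 6 genes did not divide cleanly by set. After the file kind was removed and each gene was centred, the root-mean-square distance between profiles over the 6 libraries was 0.0517 to 0.250 log2 units for the 6 pairs of primary granule genes (median 0.144). For the 6 pairs of secondary granule genes it was 0.178 to 1.12 (median 0.624), and for the 16 pairs across these sets 0.736 to 1.98 (median 1.69), so that the ranges overlapped. Lcn2 accounted for the overlap, lying nearer to the 4 primary genes (0.736 to 0.867) than to Ngp (1.12) or Ltf (1.05), and nearest of all to S100a8 (0.163). S100a9 lay nearer to Camp (0.302) than to S100a8 (0.503). These are descriptions over 6 libraries that share file kind and group. The primary profile was highest in control replicate 2 and Asxl2-/- replicate 2 and lowest in Asxl2-/- replicate 3 and control replicate 1, and the secondary mean profile was highest in Asxl2-/- replicate 1 and then in Asxl2-/- replicate 2.

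**Figure D4:**
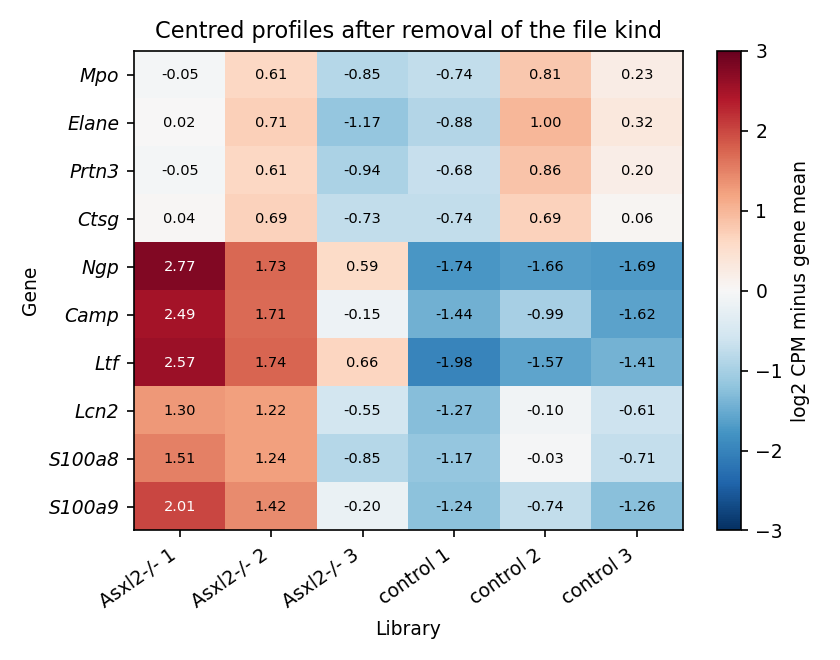
Heat map of log2 CPM minus the gene's mean, with file kind removed, for the 10 genes in rows and the 6 libraries in columns, with the value printed in each cell. The 4 primary granule genes share 1 pattern with control replicate 2 highest, and Ngp and Ltf are positive in all 3 Asxl2-/- libraries and negative in all 3 controls.

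The genes closest to these profiles were taken by that distance. Nearest to the primary mean lay Anxa3, a phospholipid-binding annexin (distance 0.0311), then F10, coagulation factor X (0.0854), and Trem3, Cldn15 and Mcemp1 (0.0865 to 0.0940). Nearest to the secondary mean lay Cd177, a neutrophil surface protein (0.195), Itgb2l, an integrin beta-like gene (0.291), and Chil3, a chitinase-like protein of granules (0.307), followed by Entpd2 (0.430) and Fsd2 (0.441). These genes were picked for a profile that is high in Asxl2-/-, so that their log2 fold changes of 2.85 for Cd177, 2.60 for Itgb2l, 2.38 for Chil3, 3.29 for Entpd2, an ectonucleotidase, and 2.42 for Fsd2 are a description and no test of them is given. Chil3, Itgb2l, Gm4961, Nupr1 and Hormad2 were nearest to calprotectin (0.213 to 0.315).

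Exon by exon, in the exon-count files, every exon of every one of the 10 genes had a higher normalised level in Asxl2-/- replicate 2 than in both control libraries, from 14 of 14 exons of Mpo and 17 of 17 of Ltf to 3 of 3 of S100a8 and S100a9. The primary genes showed this in the exon-count files and the opposite sign in the gene-count files. This count rests on 1 Asxl2-/- library, and the exons of a gene in that library are not separate observations. The share over all genes was not computed, so that the count is a description only. In the controls the largest exon of Ngp took 48.0% and 61.7% of its counts in replicates 1 and 3, against 46.2% in Asxl2-/- replicate 2.

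Other genes of the granule pathway were read from lists. Of 16 further primary granule genes, 15 were tested and 1 passed, Cd63, the tetraspanin of the primary granule membrane, which rose with a log2 fold change of 0.98 (SE 0.153, adjusted p = 0.0401 in edgeR). Ctsc, the protease that activates the granule serine proteases (-0.63), and Lyz2, lysozyme (0.52), did not pass. Of 24 further secondary and tertiary granule genes, 17 were tested. None passed in edgeR or limma-voom. At unadjusted p under 0.05 there were 6 higher and 1 lower, the latter being Mmp25 (-1.28), named after its values were seen, and 4 passed with DESeq2, all higher. Over all genes, 15.0% were higher at unadjusted p under 0.05 (edgeR), and 1181 of 14145 passed and were higher with DESeq2. Itgam, the integrin chain CD11b, stood at 43.8, 32.5 and 28.6 CPM against 14.1, 19.97 and 14.9, with a log2 fold change of 1.01 and adjusted p = 0.0528 (edgeR), and Cd177 (2.85, adjusted p = 0.0766), Chil3 (2.38, 0.0875) and Lrg1 (1.80, 0.110) had the next smallest p-values. The median of the 17 was 0.65.

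Inhibitors of the granule proteases were 12, of which 9 were tested. Serpinb6a, an intracellular inhibitor of cathepsin G, rose by a log2 fold change of 1.40 (SE 0.112, adjusted p = 0.0119 in edgeR), from 12.6, 9.48 and 11.5 CPM in the controls to 25.8, 32.6 and 23.2 CPM in the Asxl2-/- libraries. Cst3 (-1.08), Serpina3f (-1.68) and Serpinb6b (-0.46) did not pass. Of 10 receptors of secreted granule proteins, 8 were tested and none passed in edgeR or limma-voom, with 2 at unadjusted p under 0.05 and 1 past with DESeq2. Over all genes, 27.7% had unadjusted p under 0.05 (edgeR) and 2329 of 14145 passed with DESeq2. Slc22a17, a receptor of lipocalin-2, had a log2 fold change of 1.68 (adjusted p = 0.129) and F2rl1, a protease-activated receptor, -2.71 from few counts (adjusted p = 0.135), with edgeR, and Tlr4 and Ly96 had 0.30 and 0.25.

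A list of 14 transcription factors, not all of them specific to granulocytes, was tested in full. Of these, Ets1 rose (log2 fold change 1.09, SE 0.189, adjusted p = 0.0490 in edgeR). Runx1 (0.30), Per3 (0.61) and Irf8 (-1.27), which directs monocytes rather than neutrophils, did not pass. Cebpe, which drives the secondary granule genes, and Cebpa were named after their values were seen, and had log2 fold changes of 0.23 and 0.23 with adjusted p = 0.836 and 0.641 (edgeR). Cebpe stood at 8.84, 9.40 and 3.60 CPM in the Asxl2-/- libraries and at 2.38, 12.1 and 4.68 CPM in the controls, with overlapping groups. Of 9 growth factor receptors none passed in edgeR or limma-voom, with 1 at unadjusted p under 0.05 and 1 past with DESeq2. Over all genes, 27.7% had unadjusted p under 0.05 (edgeR) and 2329 of 14145 passed with DESeq2. Csf3r, the G-CSF receptor, had a log2 fold change of 0.64 (adjusted p = 0.0854 in edgeR), and Csf2ra, Kit and Csf1r had -0.52, 0.23 and -0.57. Over these pathway lists together, 3 of 72 genes tested (4.17%) passed, all higher, beside 2.34% of all genes. None passed without Asxl2-/- replicate 1 or without control replicate 3, 6 passed without Asxl2-/- replicate 2, of which 1 was higher and 5 were lower, 2 passed without control replicate 2, and 1 with library size alone as scaling.

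**Figure D5:**
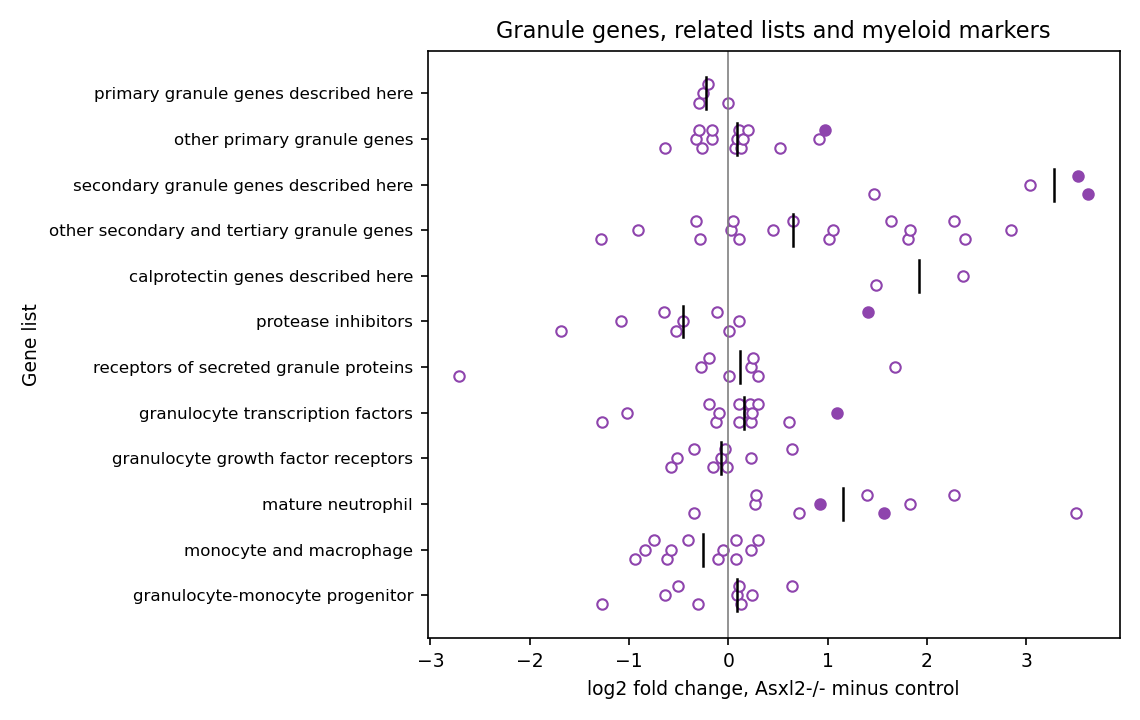
Log2 fold change of Asxl2-/- over control for each tested gene, with 1 row per list, filled circles for genes with adjusted p under 0.05, open circles for the others and a black bar at each list's median. Among the 72 other pathway genes, Cd63, Serpinb6a and Ets1 are filled, and so are Ngp, Ltf and the neutrophil markers Cxcr2 and Clec4e.

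Genes beside these loci on the chromosomes were read as well. Of 24 listed neighbouring genes tested, none passed in edgeR or limma-voom, 7 had unadjusted p under 0.05 and 5 passed with DESeq2. Over all genes, 27.7% had unadjusted p under 0.05 (edgeR), a share near that of the neighbours, and 2329 of 14145 passed with DESeq2. Ptpn23 and Klhl18, beside Ngp, had log2 fold changes of -0.12 and 0.09, Nme6 and Cdc25a, beside Camp, -0.36 and -0.35, and Ccrl2, beside Ltf, 0.23. Lpo and Bzrap1, beside Mpo, had 0.23 and 0.06, and Ptges2 and 1110008P14Rik, beside Lcn2, -0.44 and -0.24. Lppr3, beside Prtn3, had -0.13 and Mcpt8, beside Ctsg, -0.14. Cfd, S100a7a and Pglyrp4 held at most 8 counts in any library and were not tested, and Gzme and Rtp3 held none.

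Markers of other cell types that an LSK sort could hold were read beside these results. Of 14 mature neutrophil markers, 10 were tested and 2 passed, Cxcr2, the chemokine receptor (17.9, 10.02 and 14.3 CPM against 3.43, 4.58 and 4.51, adjusted p = 0.0299 in edgeR), and Clec4e (adjusted p = 0.0369). Cxcr2 was chosen after its values were seen. The 10 had a median log2 fold change of 1.16. Summed levels in this paragraph cover all listed markers that were counted, tested or not, which were 13 for mature neutrophils and 7 for T and NK cells. The neutrophil sum was 137 to 227 CPM in the Asxl2-/- libraries and 94.8 to 159 CPM in the controls, so that the ranges overlapped. Cxcr4 alone stood at 49.1 to 101 CPM and 31.6 to 75.1 CPM. At unadjusted p under 0.05 there were 6 of the 10 tested, all higher and without overlap between the groups, and 5 passed with DESeq2, all higher. Over all genes, 15.0% were higher at unadjusted p under 0.05 (edgeR) and 15.4% were higher without overlap. With adjusted p under 0.05, 2.04% were higher in edgeR and 1181 of 14145 genes in DESeq2. Named after their values were seen, Retnlg had a log2 fold change of 3.50, Mmp9 2.27 and Mmp8 1.83, and the last 2 also stand in the list of secondary and tertiary granule genes. Fpr2 and Stfa2l1 had 0 counts in some libraries, Ly6g was not analysed here, and Cxcr4 and Clec4e were the most abundant. Of 8 B cell markers 6 passed, all higher, at 160 to 162 against 39.1 to 56.8 summed CPM, with Cd79b and Igll1 the most abundant. Of 12 LSK markers 2 passed, both higher (1659 to 2045 against 1427 to 1655), with Cd34 and Cd48 the most abundant. No marker passed in edgeR or limma-voom among 12 monocyte and macrophage markers (Ms4a6c and F13a1 most abundant, 143 to 247 against 116 to 608), 9 of granulocyte-monocyte progenitors (Calr and Ms4a3, 1771 to 2985 against 2057 to 3736), 11 of eosinophils, basophils and mast cells (Cpa3 and Gata2, 503 to 613 against 497 to 620), 11 erythroid (Car1 and Car2, 913 to 1537 against 1839 to 3464) and 6 of T and NK cells (Cd8a and Cd3g, 9.55 to 11.2 against 11.2 to 21.4). At unadjusted p under 0.05 these 5 lists held 1, 2, 2, 4 and 1 genes, beside 27.7% of all genes (edgeR). With DESeq2 0, 1, 0, 2 and 1 passed, beside 2329 of 14145 genes. The part of these cells in the rise of Ngp and Ltf was not tested.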

How the data were processed

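Raw counts, deposited as whole numbers of reads per transcript or per exon, were used as given. The authors made unstranded libraries from poly(A)-selected RNA, so antisense transcripts could not be told apart. The submitters' processing notes name the mm10 build, STAR, featureCounts and DESeq2, with no role or version. Each symbol was represented by its longest transcript, and exon counts were summed over it. For 14145 genes passing filterByExpr, edgeR 4.0.16 (R 4.3.3) was used for two-sided quasi-likelihood tests of group with file kind as covariate (3 residual degrees of freedom), with TMM scaling, with Benjamini-Hochberg adjustment and a threshold of 0.05. Standard errors are the absolute log2 fold change over the square root of F. Group means and SDs are log2 CPM with a prior count of 2 and file kind removed. Alternatives used DESeq2 1.42.0 and limma-voom (limma 3.58.1). Cuffdiff, the study's test, needs aligned reads and was not run. P-values measure the spread between these libraries, and intervals and floors cover counting error only. Scripts were tested on simulated data.

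Genes were named by a rule: the 10 genes, up to 4 tested genes with the smallest p-value of each pathway list, the most abundant 2 of each marker list, the 5 genes nearest to each set's mean profile and the genes next to a member. A gene that the rule names is not reported here. The members, lists and motifs were chosen with earlier results of these data known. Promoters are from RefSeq (GRCm38.p6). Further alternatives were another scaling, another filter, no file-kind covariate, the replicate number as a block, another transcript or exon, and leaving out each library.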

Additional observations from a re-analysis of the deposited data

How the results depend on the processing

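The count of 2 of the 10 genes past the threshold became 4 with DESeq2, 0 with limma-voom, with library size alone and with the longest exon, and ranged from 0 to 5 when 1 library was left out (5 without Asxl2-/- replicate 3, 0 without any other). Over all genes, 331 calls became 2329 with DESeq2 (1181 higher, 1148 lower), 161 with library size alone (142 higher, 19 lower, against 288 and 43), and 9 to 1312 with 1 library left out (9 without control replicate 3, 1312 without control replicate 1). The 3 pathway genes, all higher, became 10, 1 and 0 to 6 (without Asxl2-/- replicate 2, 1 higher and 5 lower). The labels do not say whether the replicate numbers pair the libraries. Deviations of same-numbered libraries correlated by -0.0077 to 0.294 and those of differently numbered ones by -0.316 to 0.256. By this measure 1 of 3 Asxl2-/- libraries correlated best with its own number. File kind was not removed from these deviations, and every same-numbered pair joined a gene-count and an exon-count file. These correlations therefore cannot decide whether the numbers pair the libraries. As a block beside file kind, which leaves 1 residual degree of freedom, the replicate block gave 6 of the 10 genes, 5179 of all genes and 35 pathway genes (18 higher, 17 lower).

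The primary granule genes changed sign. Leaving out 1 library gave -1.20 to 0.80 for Mpo, -1.45 to 0.88 for Elane, -1.29 to 0.80 for Prtn3 and -0.98 to 0.98 for Ctsg, and the exon-count files alone gave 0.87, 0.99, 0.85 and 1.03. The low ends, without Asxl2-/- replicate 2, rest on the gene-count files. The high ends, without control replicate 2, rest on the exon-count files. Ctsg was also positive with limma-voom (0.0061), library size alone (0.11), at least 10 counts in every library (0.0076) and the replicate block without file kind (0.020). The difference of primary and secondary levels kept its sign, at -2.77 to -2.13 under other settings and -3.53 to -2.02 with 1 library left out. The ends of the last range are the same contrasts as the gene-count and the exon-count files alone. Causes were not tested. With 3 libraries a group and unequal file kinds, precision is limited by the spread between libraries.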
